A study of Mus musculus with 64 samples.

Results

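The genes described here are 46 components of the PI3K, AKT and mTOR pathway, the pathway that the drugs of this study were made to inhibit, and their mRNA was followed in mouse liver and liver tumours. They were chosen by gene symbol: the subunits of both mTOR complexes, the TSC proteins and Rheb, the Rag GTPases and Ragulator, 4 inhibitors that answer to stress or amino acids, translation effectors, PI3K subunits, AKT and its relatives, and an adaptor, a drug-binding protein and FOXO factors. Of the 46, 44 had a probe on the array and 37 lay above array noise often enough to be tested, out of 10495 genes tested in all. Eif4g1 and Rps6kb1 had no probe. Rptor, Rraga, Rragb, Lamtor3, Akt1, Inpp4b and Foxo3 had 1 probe each, above noise on 0 to 4 of the 64 arrays, and were not tested, so nothing is said here about the transcripts of raptor or AKT1.

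The animals were male C57Bl/6 mice that all received diethylnitrosamine (DEN), a liver carcinogen, at 50 mg/kg when 2 weeks old, so the livers called controls here were DEN-exposed too. From about 44 weeks of age they were gavaged for 28 days with placebo, with RAD001 at 10 mg/kg, with BEZ235 at 30 mg/kg, or with a combination of RAD001 at 2.5 mg/kg and BEZ235 at 18 mg/kg, and they were killed at 48 weeks, fasted for 3 hours, with the last BEZ235 dose 1 hour before death. The animals of every group received 2 doses per day. The liver groups held 7 placebo, 6 BEZ235, 7 RAD001 and 7 combination animals. The tumour groups held 10, 10, 10 and 7 arrays from 6, 6, 6 and 4 animals, and tumours of 1 animal were averaged, so that an animal counted once. In all, 31 animals were measured, 18 of them in both tissues.

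PI3K is a lipid kinase that works below insulin and growth factor receptors, and its product recruits PDK1 and AKT to the membrane, where AKT is activated. AKT and amino acids release the brakes on mTORC1, AKT by inactivating the TSC complex that holds Rheb off, amino acids through the Rag GTPases on the lysosome, and mTORC1 then drives translation by phosphorylating S6 kinases and the 4E-BP proteins. mTORC2, which contains rictor, phosphorylates AKT. The pathway is known for feedback: when mTORC1 or AKT is blocked, restraints on insulin receptor substrates and on FOXO factors are lifted, and transcripts upstream can rise in liver. RAD001 (everolimus) blocks mTORC1 after binding FKBP12, and BEZ235 binds the catalytic sites of PI3K and mTOR.

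Values are log2 intensities after the 64 arrays had been put on a common distribution, with an offset of 16 on the linear scale before the logarithm, which understates changes of dim probes. The lowest probe signal that counted as above noise was 4.92 on this scale. The deposited values had been normalized separately for each treatment, so a treatment and its normalization cannot be told apart, whereas tumours and livers of 1 treatment shared theirs. The 6 hepatocellular tumour markers were chosen with earlier results of these data known, so they describe the tissue labels and do not test them. Their mean was 10.14 to 12.04 in placebo tumours and 6.03 to 7.50 in placebo livers. In 9 of the 16 drug-treated animals with tumours it lay below the lowest placebo tumour, furthest in BEZ235 animal 693 (7.66), RAD001 animals 732 (7.60) and 730 (7.98) and combination animal 773 (8.58), and 1 combination liver, that of animal 742, reached 9.17. In bulk tissue fewer cells of a type and less RNA per cell cannot be told apart.

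Tumours were first set against livers of the same treatment. In placebo animals, 17 of the 37 members differed between tumour and liver, 11 higher and 6 lower in tumours, at a Benjamini-Hochberg adjusted p under 0.05 in limma. That is 45.9% of the members, beside 34.8% of all genes tested. The higher members included the growth factor receptor adaptor Grb10, the RAD001-binding protein Fkbp1a, the amino acid sensor Castor1, the REDD1 relative Ddit4l and the PI3K regulatory subunit Pik3r3. The lower members included the mTOR inhibitor Deptor and the PI3K subunits Pik3r1 and Pik3cb. The median absolute log2 difference was 0.37 over the members and 0.25 over all genes.

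In BEZ235 animals 13 members differed, 9 higher and 4 lower, or 35.1% of the members beside 26% of all genes. In RAD001 animals 12 differed, 8 higher and 4 lower, or 32.4% beside 28.5% of all genes. In animals on the combination 11 differed, 8 higher and 3 lower, or 29.7% beside 19.2% of all genes. The 4 comparisons hold different animals and the combination has only 4 animals with a measured tumour, so counts that fall from placebo to the combination do not show that a tissue difference shrank.

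A set of 7 members differed in the same direction under all 4 treatments, 18.9% of the members beside 13.2% of all genes. These were Grb10, Fkbp1a, Castor1, Ddit4l, Rragd and Eif4ebp1, all higher in tumours, and Pik3cb, lower in tumours. Rragd is counted here and above but passed the noise filter through its tumour arrays, so its calls give no support. Counts without it follow in the next paragraph. At least 1 treatment called 21 members, or 56.8%, beside 45.1% of all genes, and no member was called in opposite directions. The map of tumour minus liver differences shows all 37.

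Rragd was above noise on 4 of 27 liver arrays and 35 of 37 tumour arrays, so it entered the tests through the tumours and its tissue values are a description alone. Over the 34 members and 8606 genes above noise on at least 6 arrays of each tissue, which leaves out Rragd, Pik3cd and Akt2, a refit called 17 members in placebo (50%, beside 40.8% of those genes), 13 under BEZ235 (38.2% beside 30.8%), 12 under RAD001 (35.3% beside 33.3%) and 10 under the combination (29.4% beside 23%). In all 4 treatments it called 6 members in the same direction, 17.6% beside 16.1% of those genes. The refit also called Foxo1 in placebo and Sgk1 under BEZ235, which the main fit did not.

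**Figure D1:**
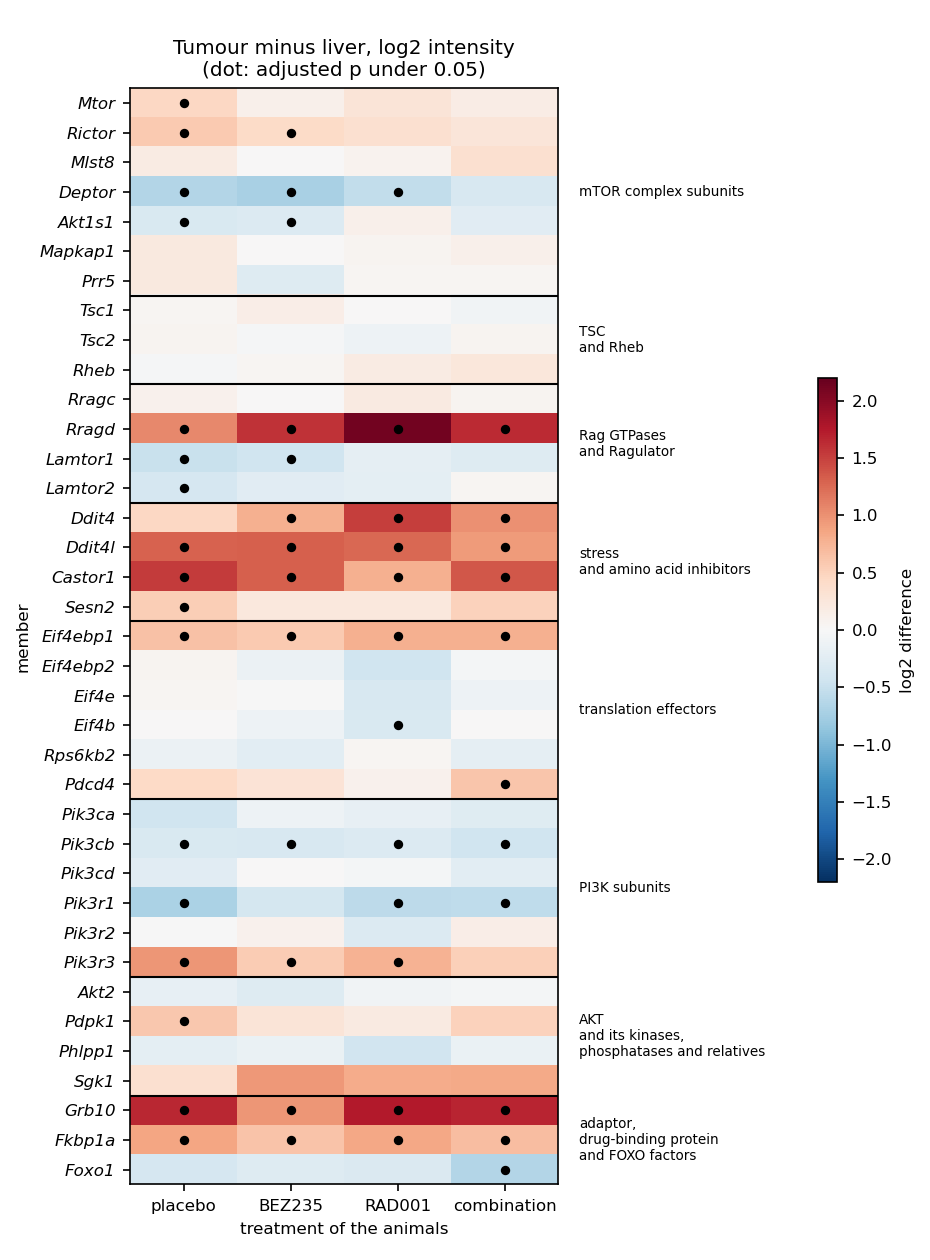
Tumour minus liver difference of each tested member in log2 intensity (colour), by treatment (columns), with members ordered by role and a dot where the adjusted p was under 0.05. Of the 37 members, 17, 13, 12 and 11 carry a dot under placebo, BEZ235, RAD001 and the combination, and the TSC and Rheb rows carry none.

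The stretches around the start of the genes that differed together are given here because transcription of each starts within them. RefSeq promoter windows of 300 bases, most of them upstream of the annotated start, on GRCm38.p6 were found for 42 of the 46 members. They were searched on both strands for CACGTG (an E-box, the motif of TFEB and Myc), GTAAACA (a FOXO motif) and TGATGNAA (an ATF4 composite element), none of which contains another. A gene can have several windows, and these members have 62. The E-box was found in 7 of the 62, 1 each of Rheb, Rragb, Rragc, Lamtor1, Eif4e, Eif4g1 and Sgk1, which is 11.3% beside 2349 of 32851 windows of all genes (7.15%). The FOXO motif was found in 3 windows, of Mapkap1 and Akt1 (4.84% beside 3.65%), and the ATF4 element in 2, of Pik3cd and Akt2 (3.23% beside 3.97%). The windows below are those of Grb10, Fkbp1a, Castor1, Ddit4l, Rragd and Pik3cb, plus Lamtor1 as one with an E-box and a lower level in placebo tumours. Capitals mark the E-box. They lie at chr11:12037371-12037670, minus strand for Grb10 (the first of 2 windows in the table), chr2:151542233-151542532, plus strand for Fkbp1a, chr11:4217975-4218274, plus strand for Castor1, chr3:137623422-137623721, plus strand for Ddit4l, chr4:32982748-32983047, plus strand for Rragd, chr9:99140162-99140461, minus strand for Pik3cb and chr7:101905587-101905886, plus strand for Lamtor1. A window without capitals says only that these letters are not in those bases, and a match is a description of the sequence, not a bound site.
Grb10: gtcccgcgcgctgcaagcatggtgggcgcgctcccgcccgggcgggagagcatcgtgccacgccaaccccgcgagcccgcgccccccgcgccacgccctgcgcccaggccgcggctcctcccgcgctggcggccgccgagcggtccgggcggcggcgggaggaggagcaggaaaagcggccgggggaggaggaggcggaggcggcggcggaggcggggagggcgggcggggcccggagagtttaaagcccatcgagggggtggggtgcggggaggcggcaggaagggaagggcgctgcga
Fkbp1a: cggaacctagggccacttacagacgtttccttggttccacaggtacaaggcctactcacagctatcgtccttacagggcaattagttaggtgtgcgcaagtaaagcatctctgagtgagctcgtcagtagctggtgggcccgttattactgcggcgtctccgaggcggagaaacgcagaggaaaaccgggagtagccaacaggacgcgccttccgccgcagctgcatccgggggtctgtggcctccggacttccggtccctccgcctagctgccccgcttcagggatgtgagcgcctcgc
Castor1: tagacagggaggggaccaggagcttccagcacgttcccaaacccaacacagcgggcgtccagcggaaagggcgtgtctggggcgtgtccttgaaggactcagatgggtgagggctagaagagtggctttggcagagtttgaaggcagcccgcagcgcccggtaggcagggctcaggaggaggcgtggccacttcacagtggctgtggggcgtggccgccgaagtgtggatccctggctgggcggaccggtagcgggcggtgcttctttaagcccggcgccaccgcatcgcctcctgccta
Ddit4l: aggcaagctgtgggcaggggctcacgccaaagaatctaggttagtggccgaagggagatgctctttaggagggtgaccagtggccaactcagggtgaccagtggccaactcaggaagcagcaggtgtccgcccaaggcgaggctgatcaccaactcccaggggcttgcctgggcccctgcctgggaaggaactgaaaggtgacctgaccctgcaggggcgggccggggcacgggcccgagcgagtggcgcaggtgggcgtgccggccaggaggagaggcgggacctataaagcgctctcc
Rragd: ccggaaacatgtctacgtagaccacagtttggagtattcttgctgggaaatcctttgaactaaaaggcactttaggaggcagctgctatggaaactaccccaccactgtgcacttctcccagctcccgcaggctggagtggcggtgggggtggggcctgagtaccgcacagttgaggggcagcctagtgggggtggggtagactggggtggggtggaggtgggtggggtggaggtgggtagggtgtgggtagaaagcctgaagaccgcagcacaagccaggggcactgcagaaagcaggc
Pik3cb: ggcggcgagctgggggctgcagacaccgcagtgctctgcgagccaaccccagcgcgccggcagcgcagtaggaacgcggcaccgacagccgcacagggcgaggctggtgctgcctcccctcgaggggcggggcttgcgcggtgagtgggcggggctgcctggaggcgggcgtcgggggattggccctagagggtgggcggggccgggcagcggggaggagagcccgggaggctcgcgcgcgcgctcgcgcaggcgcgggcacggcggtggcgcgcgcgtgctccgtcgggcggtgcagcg
Lamtor1: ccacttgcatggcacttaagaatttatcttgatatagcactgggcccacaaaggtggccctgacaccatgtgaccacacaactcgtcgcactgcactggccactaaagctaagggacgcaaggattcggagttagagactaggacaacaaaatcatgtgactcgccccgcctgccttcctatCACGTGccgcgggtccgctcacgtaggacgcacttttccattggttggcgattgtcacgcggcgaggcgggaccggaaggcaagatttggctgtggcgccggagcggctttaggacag

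Grb10, an adaptor that binds the insulin receptor, dampens its signal and is stabilised by mTORC1, separated the tissues under every treatment. Its level was 5.33 to 5.91 (median 5.55) in the 7 placebo livers and 6.39 to 7.81 (median 7.39) in the 6 placebo animals with a measured tumour. It was 5.08 to 6.11 (median 5.86) in BEZ235 livers and 6.41 to 7.28 (median 6.72) in BEZ235 tumours, 4.996 to 5.79 (median 5.64) in RAD001 livers and 6.53 to 8.56 (median 7.17) in RAD001 tumours. Livers on the combination spanned 4.85 to 5.56 (median 5.46), and the 4 tumour values were 6.69, 6.93, 6.98 and 7.59. In none of the 4 treatments did tumour and liver overlap. The log2 differences under placebo, BEZ235, RAD001 and the combination were 1.66, 0.97, 1.74 and 1.67 (SE 0.22 to 0.25, adjusted p = 4.42e-08, 0.00093, 3.1e-08 and 3.49e-06), which is 3.16-fold in placebo animals.

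Fkbp1a encodes FKBP12, the protein through which RAD001 acts. It was 8.82 to 9.52 (median 9.29) in placebo livers and 9.78 to 10.37 (median 10.17) in placebo tumours, which did not overlap. In RAD001 animals it was 8.92 to 9.37 (median 9.32) in livers and 9.66 to 10.57 (median 9.99) in tumours, again apart. Tumour and liver overlapped in BEZ235 animals, where livers were 9.11 to 9.58 (median 9.20) and tumours 9.30 to 10.24 (median 9.95), and the combination tumours at 9.38, 9.79, 9.85 and 10.30 overlapped livers at 8.88 to 9.57 (median 9.06). The log2 differences were 0.87, 0.63, 0.85 and 0.68 (SE 0.14 to 0.16, adjusted p = 2.76e-06, 0.000825, 6.22e-06 and 0.00161) in the same order of treatments.

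Foxo1, a transcription factor that AKT keeps out of the nucleus, was lower in tumours past the limit under the combination, with livers at 8.02 to 8.65 (median 8.18), tumours at 7.24, 7.48, 7.91 and 7.97 and a log2 difference of -0.64 (SE 0.17, adjusted p = 0.00572), and these groups did not overlap. That call was lost without animal 713 (adjusted p = 0.0609). Under placebo, BEZ235 and RAD001 the differences were -0.37, -0.29 and -0.33 (adjusted p = 0.0577, 0.18 and 0.105). The refit over genes above noise in each tissue did call Foxo1 in placebo. The drug effects in both tissues are compared further on. In placebo tumours 1 animal, 696, stood at 8.18 and the other 5 at 7.54 or less.

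**Figure D2:**
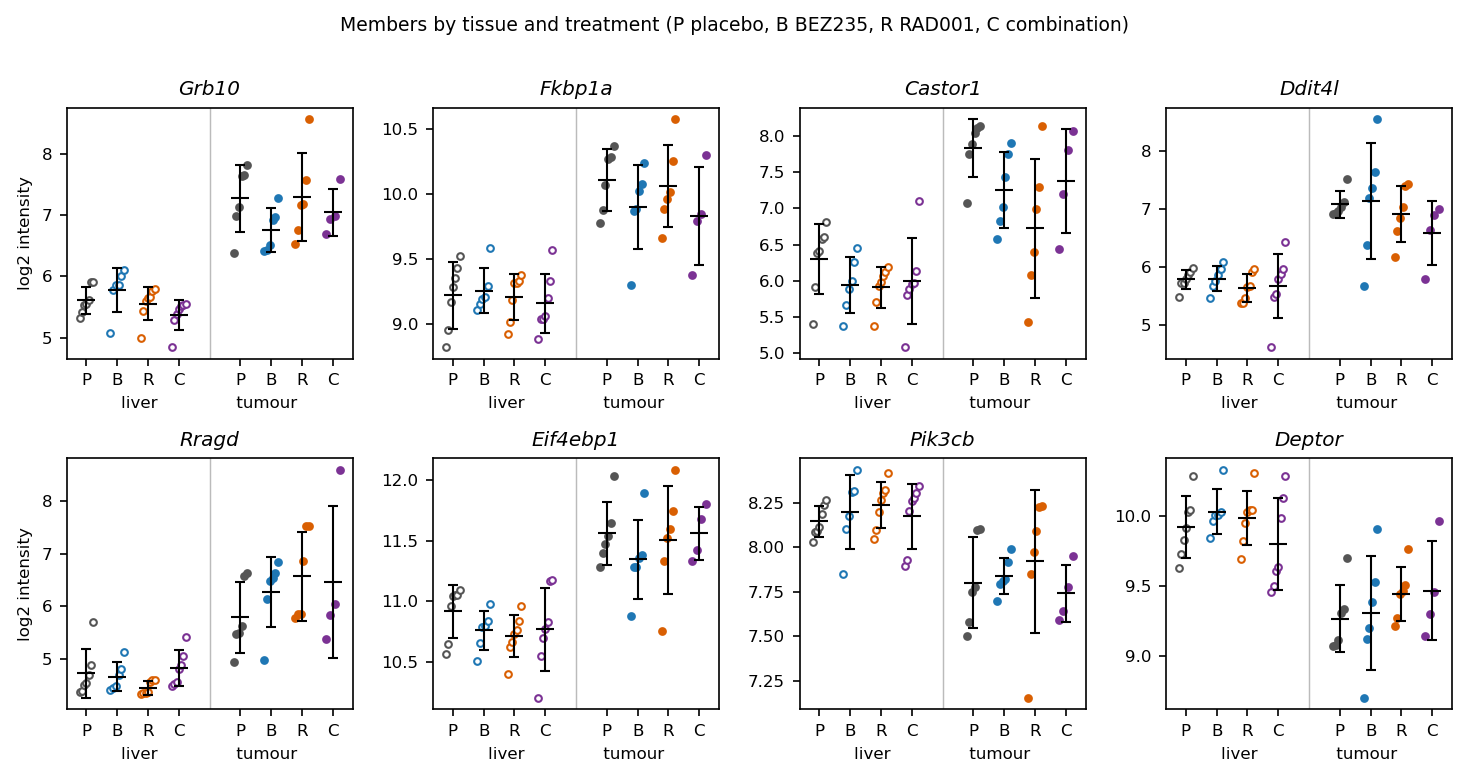
Log2 intensity of the 7 members named for all 4 treatments, Rragd among them although its livers lie at array noise, and of Deptor, in each animal (points: open for liver, filled for tumour, tumours of an animal averaged) by treatment, with black bars for the mean ± SD. Grb10 tumours all lie above the livers of the same treatment, while Pik3cb and Deptor lie lower in tumours with overlap.

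Among the inhibitors of mTORC1 that answer to stress or amino acids, 3 of 4 tested members were higher in tumours in each treatment and none was lower, but not always the same 3. For 4 genes this is a description, beside 34.8%, 26%, 28.5% and 19.2% of all genes called in either direction. Castor1, which senses arginine and restrains mTORC1 when arginine is short, was 5.40 to 6.81 (median 6.41) in placebo livers and 7.08 to 8.13 (median 7.97) in placebo tumours. In BEZ235 animals livers were 5.38 to 6.46 (median 5.94) and tumours 6.58 to 7.91 (median 7.23). Neither pair overlapped. In RAD001 animals tumours spread over 5.43 to 8.14 (median 6.70) and overlapped livers at 5.38 to 6.19 (median 5.99), and in the combination tumours at 6.44, 7.20, 7.80 and 8.07 overlapped livers at 5.08 to 7.10 (median 5.95). The log2 differences were 1.54, 1.31, 0.79 and 1.36 (SE 0.29 to 0.33, adjusted p = 3.56e-05, 0.000806, 0.0363 and 0.00219). The RAD001 call was lost when any of animals 700, 727, 730, 760 or 772 was left out (adjusted p up to 0.175), and without both 730 and 732, the tumours with low tumour markers, the difference was 1.15 (adjusted p = 0.00775).

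Ddit4l, a relative of REDD1 that inhibits mTORC1, was 5.49 to 5.98 (median 5.80) in placebo livers and 6.92 to 7.52 (median 7.001) in placebo tumours, without overlap. Tumours were 5.68 to 8.54 (median 7.28) under BEZ235 and 6.17 to 7.42 (median 6.94) under RAD001, and 5.80, 6.64, 6.89 and 7.005 under the combination. The log2 differences were 1.29, 1.31, 1.27 and 0.93 (SE 0.25 to 0.29, adjusted p = 6.22e-05, 0.000159, 0.000126 and 0.0161). The RAD001 groups did not overlap, and the BEZ235 and combination groups did. The combination call was lost without 713, 773 or 775 (adjusted p up to 0.118) and with every tumour array on its own (0.194).

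Ddit4, which encodes REDD1, an activator of the TSC complex induced by hypoxia and glucocorticoids, was called in the 3 drug groups and not in placebo. Placebo livers were 7.12 to 8.65 (median 7.88) and tumours 7.69 to 9.15 (median 8.30), with a log2 difference of 0.45 (SE 0.29, adjusted p = 0.244). RAD001 livers were 7.06 to 8.38 (median 7.91) and RAD001 tumours 8.55 to 10.04 (median 9.46), groups that did not overlap, with a difference of 1.51 (SE 0.29, adjusted p = 6.3e-05). Under BEZ235 and the combination the differences were 0.78 and 1.002 (adjusted p = 0.0469 and 0.0241). Without any of animals 693, 697, 712 or 755 the BEZ235 call was lost (adjusted p up to 0.215), and without 713, 726 or 773 that of the combination (up to 0.154). Sesn2, a leucine-binding stress protein that restrains mTORC1, was called in placebo alone, where livers were 4.53 to 5.32 (median 4.83), tumours 4.88 to 5.83 (median 5.42) and the difference 0.54 (SE 0.18, adjusted p = 0.0133). That call was lost without animal 696 (adjusted p = 0.0594), and in the combination the difference was 0.51 (adjusted p = 0.0661).

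Of the Rag GTPases and Ragulator, which hold mTORC1 at the lysosome when amino acids are plentiful, Rragd is one whose livers lay mostly at array noise, so its values are given with no test. Its placebo livers were 4.37 to 5.70 (median 4.56) and its placebo tumours 4.94 to 6.63 (median 5.56), which overlapped through the liver of animal 744 at 5.70. Tumours were 4.99 to 6.85 (median 6.51) under BEZ235, 5.78 to 7.53 (median 6.36) under RAD001 and 5.38, 5.83, 6.04 and 8.59 under the combination, where 1 animal stood far above the other 3. The log2 differences were 1.06, 1.59, 2.12 and 1.64. In RAD001 livers Rragd was not above background on any array, so tumours were at least 3.13-fold higher there. Without animal 773 the combination difference was 0.89.

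The Ragulator scaffold Lamtor1 was lower in tumours of placebo animals and of BEZ235 animals. Placebo livers were 8.36 to 9.03 (median 8.57) and placebo tumours 7.96 to 8.31 (median 8.18), without overlap, a difference of -0.50 (SE 0.16, adjusted p = 0.0115), and under BEZ235 the difference was -0.44 (adjusted p = 0.0401). Its partner Lamtor2 was lower in placebo tumours, at 8.37 to 9.12 (median 8.82) against 8.91 to 9.40 (median 9.11) in livers, with overlap and a difference of -0.37 (SE 0.13, adjusted p = 0.0254). Leaving out 1 animal ended each of these calls: 696 for Lamtor1 in placebo (adjusted p = 0.0599), any of 697, 712, 725, 728 and 755 for Lamtor1 under BEZ235 (up to 0.167), and 710, 769 or 771 for Lamtor2 (up to 0.0978). Rragc passed nowhere, with differences of 0.10, 0.01, 0.20 and 0.06.

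Among the 7 tested subunits of the mTOR complexes, the kinase itself and rictor were higher in placebo tumours, and Deptor and Akt1s1 lower. Mtor was 6.94 to 7.32 (median 7.07) in placebo livers and 7.30 to 7.73 (median 7.55) in placebo tumours, and the groups overlapped, with a difference of 0.45 (SE 0.12, adjusted p = 0.00155). That call held whichever single animal was left out. It was lost with the animal as a fixed block, over the 18 animals that gave both tissues. In the drug groups the differences of Mtor were 0.11, 0.28 and 0.16 (adjusted p = 0.575, 0.0634 and 0.456). Rictor, the defining subunit of mTORC2, was 7.72 to 8.28 (median 8.03) in placebo livers and 8.37 to 8.75 (median 8.59) in tumours, without overlap, a difference of 0.58 (SE 0.14, adjusted p = 0.00128). It was higher in BEZ235 tumours too, by 0.42 (adjusted p = 0.0309), a call lost without 697, 712 or 728 (up to 0.135). Under RAD001 and the combination it was 0.36 and 0.27 (adjusted p = 0.0569 and 0.266).

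Deptor, an inhibitor that sits in both mTOR complexes, was 9.63 to 10.29 (median 9.91) in placebo livers and 9.07 to 9.70 (median 9.21) in placebo tumours. The liver and tumour ranges overlapped in each treatment. Its differences were -0.65, -0.72, -0.55 and -0.35 (SE 0.14 to 0.16, adjusted p = 0.000279, 0.000227, 0.0027 and 0.123), so the first 3 passed and the combination did not. A dimmer Deptor probe gave -0.80 in placebo animals, beside -0.65 from the brighter one. Akt1s1, which encodes the mTORC1 inhibitor PRAS40, was 7.99 to 8.22 (median 8.08) in placebo livers and 7.42 to 8.08 (median 7.81) in placebo tumours, with overlap and a difference of -0.33 (SE 0.11, adjusted p = 0.0159), and it was lower in BEZ235 tumours too, with -0.30 (adjusted p = 0.0482). Both calls were lost without single animals, 696 or 748 in placebo (up to 0.0956) and 693, 712, 725, 755 or 759 under BEZ235 (up to 0.325). Mlst8, shared by both complexes, and the mTORC2 subunits Mapkap1 and Prr5 passed in no treatment, with differences between -0.29 and 0.36. Tsc1, Tsc2 and Rheb, the brake on mTORC1 and its switch, passed in none either. At an unadjusted p under 0.05 in limma 0 of 3 were found in each treatment, beside 42.6%, 35.7%, 38% and 30.1% of all genes under placebo, BEZ235, RAD001 and the combination, and their differences lay between -0.12 and 0.25.

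Of the translation effectors, Eif4ebp1, the repressor of cap-dependent translation that mTORC1 phosphorylates, was higher in tumours throughout. It was 10.56 to 11.10 (median 11.04) in placebo livers and 11.28 to 12.03 (median 11.50) in placebo tumours, which did not overlap. In the combination livers were 10.20 to 11.17 (median 10.77) and tumours 11.33, 11.43, 11.68 and 11.80, also apart, while the BEZ235 and RAD001 groups overlapped. The log2 differences were 0.64, 0.58, 0.79 and 0.78 (SE 0.15 to 0.17, adjusted p = 0.000813, 0.00432, 7.99e-05 and 0.000819). Its relative Eif4ebp2 had differences of 0.05, -0.12, -0.44 and -0.05, none past the test. Eif4b, a helicase cofactor phosphorylated by S6 kinase, was lower in RAD001 tumours, at 6.63 to 7.45 (median 7.29), than in RAD001 livers, at 7.32 to 7.80 (median 7.50), with overlap and a difference of -0.34 (SE 0.13, adjusted p = 0.0381) that was lost without any of 727, 732, 745, 760, 763 or 772 (up to 0.16). Pdcd4, an inhibitor of eIF4A degraded after S6 kinase acts on it, was higher in combination tumours, at 5.80, 6.74, 6.88 and 7.27 against 5.59 to 6.35 (median 6.16) in livers, with overlap and a difference of 0.61 (SE 0.21, adjusted p = 0.0333) that was lost without 713, 726 or 775 (up to 0.409). The cap-binding protein Eif4e and the S6 kinase Rps6kb2 passed nowhere. Rps6kb2 was above noise on only 11 of 27 liver and 11 of 37 tumour arrays.

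Of the 6 tested PI3K subunits, Pik3cb and Pik3r1 were lower in tumours and Pik3r3 higher, and 3 passed nowhere. Pik3cb, the catalytic subunit p110β, was 8.03 to 8.27 (median 8.12) in placebo livers and 7.50 to 8.10 (median 7.76) in placebo tumours, and in the combination 7.90 to 8.34 (median 8.26) in livers and 7.59, 7.64, 7.78 and 7.95 in tumours. The ranges overlapped in every treatment. Its differences were -0.34, -0.36, -0.31 and -0.43 (SE 0.12 to 0.13, adjusted p = 0.0215, 0.0244, 0.045 and 0.016). Each call was lost when a single animal was left out: 696 or 769 in placebo (adjusted p up to 0.102), 697, 755 or 759 under BEZ235 (up to 0.08), 700, 727, 732, 760 or 772 under RAD001 (up to 0.262), and 713, 726 or 775 under the combination (up to 0.11).

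Pik3r1, which encodes the main regulatory subunit p85α, was 8.53 to 9.55 (median 9.20) in placebo livers and 8.11 to 9.03 (median 8.31) in placebo tumours, where animal 710 stood highest and overlapped the livers. Its differences were -0.70, -0.38, -0.58 and -0.55 (SE 0.16 to 0.18, adjusted p = 0.000491, 0.0865, 0.00431 and 0.0245), with the BEZ235 value outside the limit. The combination call was lost without 726 or 773 (adjusted p up to 0.147), with 1 tumour per animal (0.0851), with the mean over its probes (0.0708) and with only the groups compared in the fit (0.0608). A second bright probe gave -0.83 in placebo, and a probe near noise 0.06. Pik3r3, the p55γ regulatory subunit, went the other way. It was 4.54 to 5.01 (median 4.83) in placebo livers and 5.29 to 6.13 (median 5.92) in placebo tumours, without overlap, and its differences were 0.96, 0.55, 0.77 and 0.52 (SE 0.19 to 0.21, adjusted p = 5.19e-05, 0.0287, 0.00122 and 0.0805). The BEZ235 call was lost without 697, 728 or 755 (adjusted p up to 0.133), with 1 tumour per animal (0.0537), with every tumour array on its own (0.0903) and with the animal as a fixed block (0.126), which also ended the RAD001 call (0.0641). The catalytic subunits Pik3ca and Pik3cd and the regulatory Pik3r2 passed in no treatment, Pik3ca with -0.44, -0.11, -0.17 and -0.27. Pik3cd was above noise on only 2 of 27 liver and 5 of 37 tumour arrays.

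Among AKT and its relatives, Pdpk1, the kinase PDK1 that phosphorylates AKT in its activation loop, was higher in placebo tumours, at 8.06 to 8.70 (median 8.32), than in placebo livers, at 7.57 to 8.01 (median 7.71), without overlap and with a difference of 0.59 (SE 0.19, adjusted p = 0.0144). Its 2 probes disagree: the dimmer gave -0.11, and their mean gave 0.24 (adjusted p = 0.12), so the call rests on 1 probe. That call was also lost with the animal as a fixed block. Akt2, the AKT of insulin-responsive tissues, had differences of -0.18, -0.29, -0.08 and -0.05, with adjusted p of 0.23, 0.065, 0.658 and 0.856. Its probe was above noise on only 7 of 27 liver and 3 of 37 tumour arrays. The offset compresses such differences, so they cannot exclude a larger change. Sgk1, an AKT relative activated by mTORC2, had 0.34, 0.96, 0.82 and 0.84 (adjusted p = 0.516, 0.0508, 0.0817 and 0.151), and Phlpp1, a phosphatase of AKT, -0.22, -0.14, -0.42 and -0.15. None of these passed in the main fit, while the refit over genes above noise in each tissue called Sgk1 under BEZ235.

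The 18 animals that gave both tissues allow each tumour to be set against the liver it grew in. Grb10 and Fkbp1a were higher in the tumour in 18 of 18 animals, by 0.30 to 3.57 and 0.19 to 1.65 on the log2 scale, with medians of 1.42 and 0.66. Rragd, mostly at noise in liver, lay 0.05 to 4.03 above it. Ddit4, Castor1, Eif4ebp1 and Pik3r3 were higher in 17 of 18 and Ddit4l in 16. Deptor and Foxo1 were lower in 18 of 18, with medians of -0.58 and -0.42, and Pik3r1 in 17 and Pik3cb in 14. These pairs use the same samples as the comparisons above and are a description of them. With the animal as a fixed block, which keeps only these 18, the counts of members called were 9, 8, 8 and 11 for placebo, BEZ235, RAD001 and the combination. Eif4ebp1, Grb10, Fkbp1a and Ddit4l were the 4 called in all. The share of all genes called in that fit is not given here, so its counts are a description. Eif4ebp1, Grb10 and Fkbp1a were also called in all 4 treatments whichever single animal was left out.

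**Figure D3:**
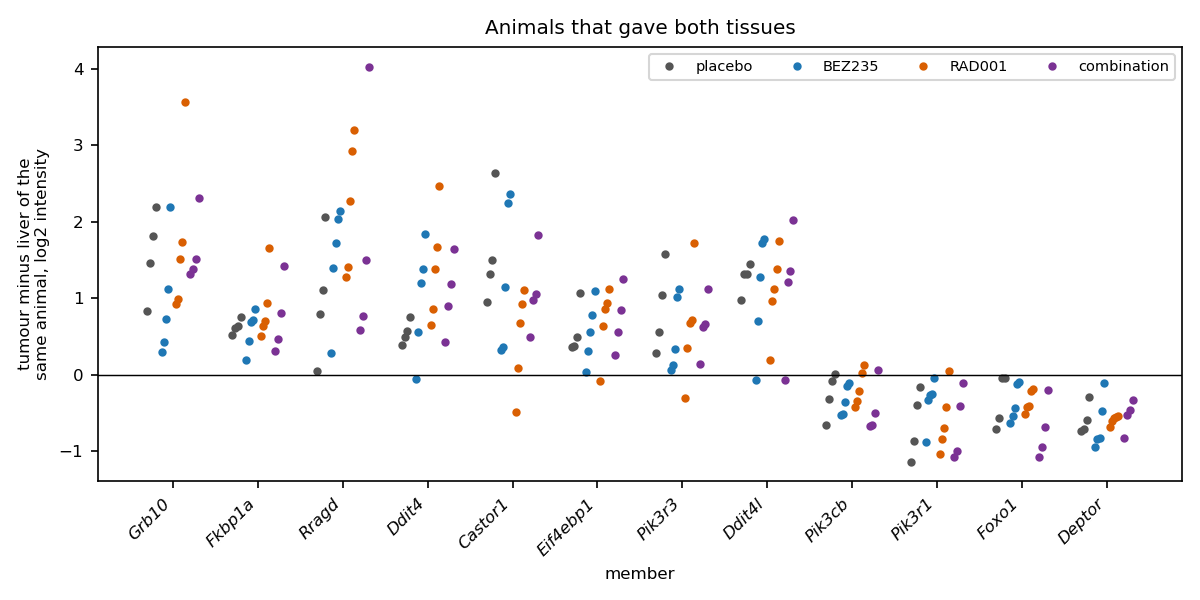
Tumour minus liver difference in log2 intensity for 12 members in each of the 18 animals that gave both tissues (points, coloured by treatment, tumours of an animal averaged). All 18 points lie above 0 for Grb10, Fkbp1a and Rragd and below 0 for Deptor and Foxo1.

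Kupffer cell and macrophage markers moved with the tissue as well: 5 of 5 were lower in placebo tumours, and their mean level was 5.72 to 7.03 there and 7.86 to 9.19 in placebo livers. In BEZ235, RAD001 and combination tumours 3 of 5 were lower. Of 8 hepatocyte markers, 2 were higher and 3 lower in placebo tumours, and of 7 stellate and fibroblast markers 3 were higher and 1 lower. Of all genes, 34.8%, 26%, 28.5% and 19.2% were called in either direction under placebo, BEZ235, RAD001 and the combination. The part of these cell types in the differences of the members was not tested.

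Tumours of the same animal differed from each other, which bears on how firmly an animal's value stands. In the 12 animals with several tumours (27 tumours in all), Rragd had an SD of 1.39 within animals and 0.89 between animals of a treatment, and the tumours of BEZ235 animal 759 lay 4.39 apart. Ddit4 had 1.07 within and 0.64 between animals, with a largest gap of 4.14 in combination animal 726. Grb10 had 1.00 and 0.53, Ddit4l 1.12 and 0.64, Sgk1 1.17 and 1.01, and Castor1 0.81 and 0.68. The SD between animals is over animal means, some of them of several tumours, which narrows it, so these SDs are not like measures. For these 6 members the SD within animals was the larger. Mtor had smaller SDs, 0.28 within and 0.22 between animals, in the same order.

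The comparison of each drug with placebo asks whether mRNA of the targeted pathway answered to its inhibition. In tumours 0 of 37 members passed in limma under any regimen, and 0% of all genes passed under BEZ235, 0% under RAD001 and 0% under the combination. At an unadjusted p under 0.05, 1 member was found under BEZ235 (2.7%, beside 5.32% of all genes), 5 under RAD001 (13.5% beside 7.05%) and 1 under the combination (2.7% beside 7.99%). For 33, 33 and 32 of the 37 members the 95% interval of the difference lay within 2-fold either way. A larger change lies outside those intervals, but those of probes near noise are narrowed by the offset and cannot exclude it. The members whose interval reached 2-fold were Rragd, Castor1 and Sgk1 under every regimen, Grb10 under BEZ235, Ddit4 under RAD001 and the combination, and Ddit4l under the combination.

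**Figure D4:**
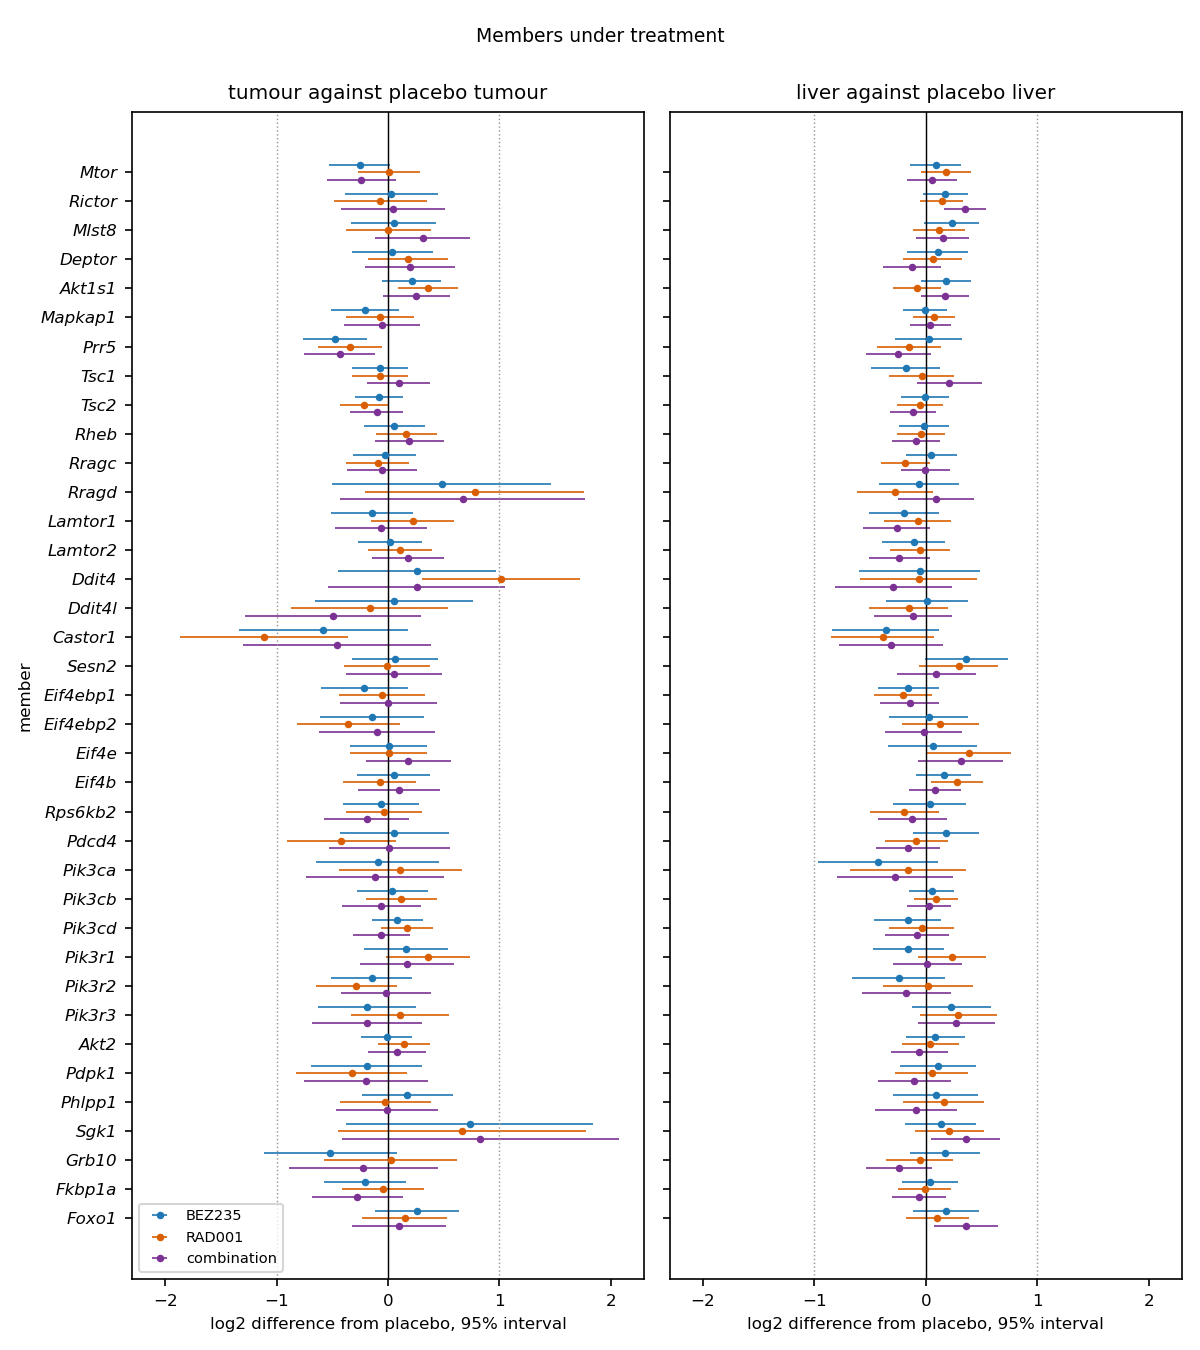
Log2 difference from placebo of each tested member in tumours (left) and livers (right) under BEZ235, RAD001 and the combination, with 95% intervals; dotted lines mark a 2-fold change. No member passed the adjusted limit, intervals are wider in tumours, and all 37 liver intervals lie within 2-fold. The offset narrows the intervals of probes near noise.

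Prr5, an mTORC2 subunit, had the lowest p in BEZ235 and in combination tumours. It was 4.71 to 5.38 (median 5.14) in placebo tumours, 4.39 to 4.98 (median 4.57) in BEZ235 tumours and 4.54, 4.62, 4.71 and 4.72 in combination tumours, at the edge of array noise, and the groups overlapped. The differences were -0.48 (SE 0.14, adjusted p = 0.779) and -0.44 (SE 0.15, adjusted p = 0.489). In BEZ235 tumours the next members by p were Mtor (-0.26), Grb10 (-0.52), Akt1s1 (0.21), Castor1 (-0.58), Foxo1 (0.26), Mapkap1 (-0.21), Sgk1 (0.73), Fkbp1a (-0.21), Eif4ebp1 (-0.21), Rragd (0.48) and Pik3r1 (0.16), in log2 units. None of these was under an unadjusted p of 0.05. Placebo tumours are in all 3 comparisons, so like signs under several drugs are not independent of each other.

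In RAD001 tumours the members at the top were Castor1 and Ddit4. Castor1 was 7.08 to 8.13 (median 7.97) in placebo tumours and 5.43 to 8.14 (median 6.70) in RAD001 tumours, which overlapped, with a difference of -1.11 (SE 0.36, adjusted p = 0.63) and a 95% interval of -1.87 to -0.36. Ddit4 was 7.69 to 9.15 (median 8.30) in placebo tumours and 8.55 to 10.04 (median 9.46) in RAD001 tumours, also with overlap, with a difference of 1.01 (SE 0.34, adjusted p = 0.63) and an interval of 0.30 to 1.72. Akt1s1 (0.36), Prr5 (-0.34), Tsc2 (-0.22), Pik3r1 (0.36), Pdcd4 (-0.42), Rragd (0.78), Pik3r2 (-0.28), Eif4ebp2 (-0.36), Pik3cd (0.17) and Pdpk1 (-0.33) followed. Without animals 730 and 732, whose tumours had low tumour markers, Castor1 was -0.71, Ddit4 0.94 and Pdpk1 0.03, and again 0 members passed.

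In combination tumours Prr5 was followed by Akt1s1 (0.25), Mtor (-0.24), Mlst8 (0.31), Fkbp1a (-0.28), Sgk1 (0.83), Ddit4l (-0.50), Rheb (0.19), Rragd (0.67), Lamtor2 (0.18), Castor1 (-0.46) and Rps6kb2 (-0.19). Several of these values shrank when 1 animal was left out: without 773 Rragd was -0.04, Mlst8 0.04, Lamtor2 0.01 and Castor1 -0.15, and without 775 Sgk1 was 0.18 and Mtor -0.03. Of the proteins that the drugs bind, Mtor had 95% intervals of -0.53 to 0.02, -0.27 to 0.28 and -0.55 to 0.07 under BEZ235, RAD001 and the combination, Fkbp1a -0.57 to 0.16, -0.41 to 0.32 and -0.68 to 0.13, and Pik3cb -0.28 to 0.36, -0.20 to 0.44 and -0.42 to 0.30. The differences of Pik3ca were -0.09, 0.11 and -0.12, of Rictor 0.03, -0.07 and 0.04 and of Akt2 -0.01, 0.14 and 0.08. Akt2 lay mostly at array noise, so its values cannot exclude a larger change.

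In livers 0 of 37 members passed in limma either, beside 0.0286% of all genes under BEZ235, 0% under RAD001 and 0.276% under the combination. At an unadjusted p under 0.05 there were 0 members under BEZ235 (beside 5.15% of all genes), 2 under RAD001 (5.41% beside 6.42%) and 3 under the combination (8.11% beside 8.44%). All 37 intervals lay within 2-fold under each regimen, but those of probes near noise are narrowed by the offset and cannot exclude a larger change.

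Rictor in combination livers came nearest to the limit. It was 7.72 to 8.28 (median 8.03) in placebo livers and 8.20 to 8.60 (median 8.31) in combination livers, and only the 2 lowest combination livers fell within the placebo range. The difference was 0.35 (SE 0.09, adjusted p = 0.132), with an unadjusted p of 0.000807. It passed under 2 other ways of scaling the arrays, at 0.41 (adjusted p = 0.0461) on the values without the common normalization and at 0.42 (0.0348) with median centring. Both keep the separate normalization of each treatment, which cannot be told apart from the treatment. Foxo1 (0.36), Sgk1 (0.36), Lamtor2 (-0.24), Lamtor1 (-0.26), Prr5 (-0.25), Eif4e (0.31), Grb10 (-0.24), Pik3r3 (0.27), Akt1s1 (0.17), Tsc1 (0.21) and Castor1 (-0.31) followed by p. Rictor in BEZ235 and RAD001 livers differed by 0.18 and 0.14 (adjusted p = 0.965 and 0.853).

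In BEZ235 livers the lowest p belonged to Sesn2 (0.36), Mlst8 (0.23), Rictor, Akt1s1 (0.18), Pik3ca (-0.43), Castor1 (-0.36), Eif4b (0.16), Pik3r3 (0.23), Lamtor1 (-0.19), Pdcd4 (0.18), Foxo1 (0.18) and Tsc1 (-0.18). In RAD001 livers they were Eif4b (0.28, adjusted p = 0.705), Eif4e (0.38), Pik3r3 (0.29), Rragc (-0.18), Castor1 (-0.39), Sesn2 (0.30), Mtor (0.18), Rragd (-0.28), Eif4ebp1 (-0.20), Pik3r1 (0.24), Rictor and Sgk1 (0.21). Rragd was not above noise on any RAD001 liver array, so its value is a description alone. The differences of Akt2, which lay mostly at array noise, in BEZ235, RAD001 and combination livers were 0.09, 0.04 and -0.06. Those of Pik3ca were -0.43, -0.16 and -0.28, of Pik3cb 0.05, 0.09 and 0.03, of Fkbp1a 0.04, -0.01 and -0.06 and of Mtor 0.09, 0.18 and 0.05.

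Beside the members stand 65 other tested genes of the pathway, and among them was the 1 change against placebo that passed. Irs2, the insulin receptor substrate through which hepatic insulin signalling reaches PI3K, and a FOXO target in liver, rose in combination livers. It was 7.30 to 8.59 (median 8.23) in placebo livers and 8.44 to 9.89 (median 9.50) in combination livers, with overlap at the low end of the combination. The difference was 1.18 (SE 0.22, adjusted p = 0.0125), and it passed whichever of the 14 animals was left out (adjusted p = 0.0018 to 0.0396). With only these 2 groups in the fit the adjusted p was 0.0938. Its promoter window, at chr8:11008880-11009179, minus strand on GRCm38.p6 from RefSeq, is shown as that of the gene that rose, with an E-box in capitals and neither of the other motifs.
Irs2: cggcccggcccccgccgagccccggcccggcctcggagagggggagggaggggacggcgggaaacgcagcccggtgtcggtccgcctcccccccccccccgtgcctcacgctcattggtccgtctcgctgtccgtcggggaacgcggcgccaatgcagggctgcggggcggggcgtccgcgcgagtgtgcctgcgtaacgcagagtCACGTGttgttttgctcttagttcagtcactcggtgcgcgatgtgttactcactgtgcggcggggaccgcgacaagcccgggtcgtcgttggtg

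In the other livers Irs2 was 8.89 to 9.34 (median 9.23) under BEZ235 and 8.38 to 9.50 (median 8.78) under RAD001. All 6 BEZ235 livers lay above all 7 placebo livers, while 2 RAD001 livers lay within the placebo range. The differences were 1.04 (SE 0.23, adjusted p = 0.184) and 0.76 (SE 0.22, adjusted p = 0.439), neither past the limit, and combination livers differed from RAD001 livers by 0.42 (adjusted p = 0.551). In tumours Irs2 differed from placebo tumours by 0.60, 0.34 and 0.70 under BEZ235, RAD001 and the combination (adjusted p = 0.92, 0.783 and 0.589).

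**Figure D5:**
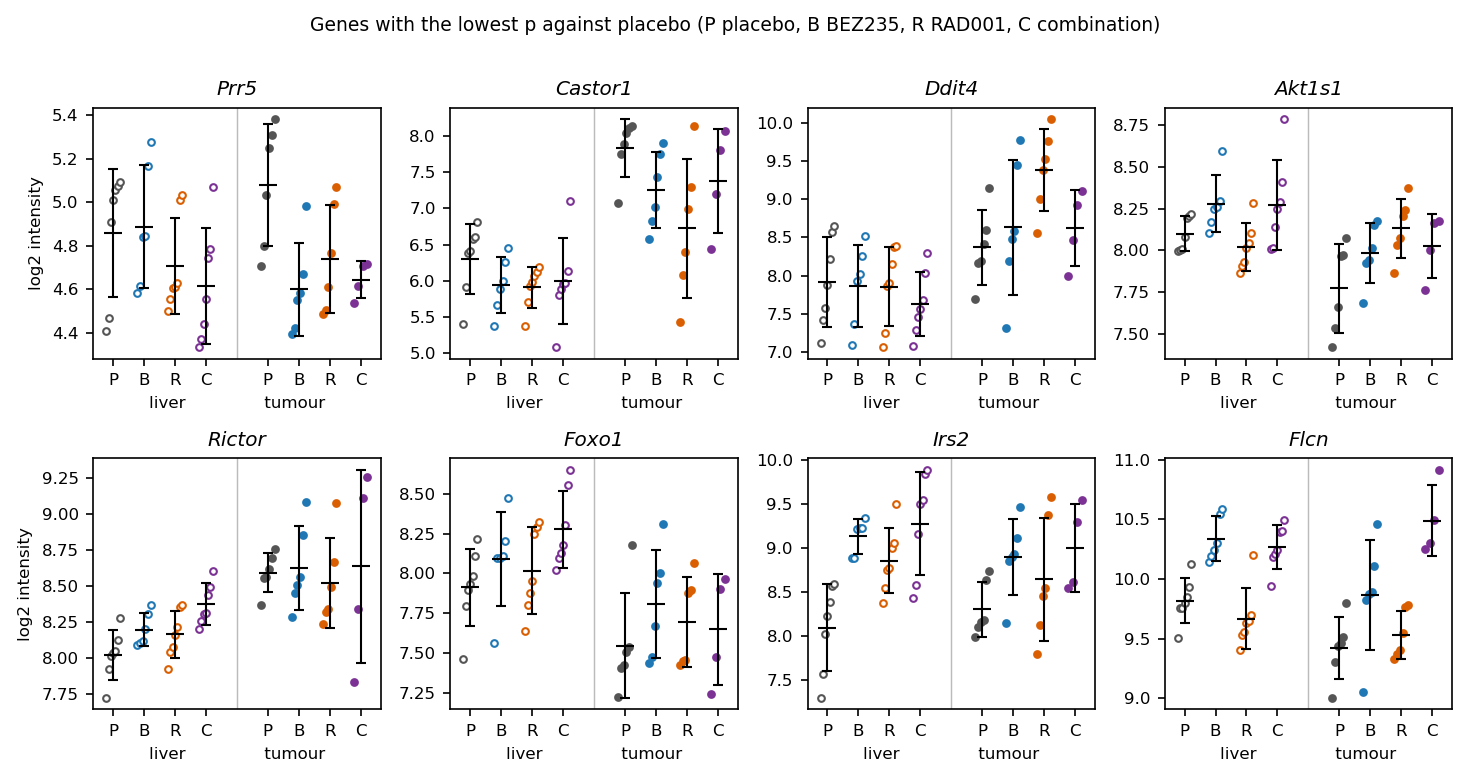
Log2 intensity of 6 members and of Irs2 and Flcn in each animal (points: open for liver, filled for tumour) by treatment, with black bars for the mean ± SD. Irs2 in livers is lowest under placebo, with a mean of 8.10 beside 9.13, 8.86 and 9.28 under BEZ235, RAD001 and the combination.

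The regimens were then set against each other, at doses that differ between single drugs and combination, so the comparisons are of regimens and not of compounds at matched dose. In tumours 0 of 37 members passed in limma, beside 0.00953% of all genes in BEZ235 against RAD001, 0.0191% for the combination against RAD001 and 0% for the combination against BEZ235. At an unadjusted p under 0.05, 1, 0 and 0 members were found beside 3.83%, 4.58% and 2.86% of all genes. The 1 was Ddit4, lower in BEZ235 than in RAD001 tumours by a log2 difference of -0.75 (SE 0.34, adjusted p = 0.994).

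In livers 0 members passed, beside 0.152%, 0.877% and 0% of all genes for BEZ235 against RAD001, the combination against RAD001 and the combination against BEZ235. At the unadjusted limit 3 members were found in each, beside 8.59%, 9.79% and 3.9% of all genes. Those with the lowest p were Pik3r1 (-0.39), Akt1s1 (0.25) and Grb10 (-0.41). Outside the members, Flcn, the GAP that acts on RagC and RagD, was higher under both regimens with BEZ235 than under RAD001. It was 10.14 to 10.59 (median 10.27) in BEZ235 livers, 9.94 to 10.49 (median 10.24) in combination livers and 9.40 to 10.20 (median 9.63) in RAD001 livers, where 1 animal reached into the range of the others. The differences from RAD001 were 0.67 (SE 0.12, adjusted p = 0.012) for BEZ235 and 0.60 (SE 0.12, adjusted p = 0.00782) for the combination, and the first gave 0.0559 with only its 2 groups in the fit. Against placebo livers Flcn differed by 0.52, -0.15 and 0.45 (adjusted p = 0.184, 0.895 and 0.104) under BEZ235, RAD001 and the combination, and in combination tumours by 1.07 (SE 0.20, adjusted p = 0.158).

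Whether a drug effect differed between tumour and liver was tested as the difference of the effects. No member passed in limma (0 of 37 for each drug), beside 0% of all genes under BEZ235, 0.0191% under RAD001 and 0.00953% under the combination. At an unadjusted p under 0.05 there were 3, 3 and 1 members, beside 5.35%, 7.5% and 8.44% of all genes. Under RAD001 they were Akt1s1 (0.45), Ddit4 (1.06) and Rragd (1.07), all more positive in tumours, with adjusted p of 0.513, 0.555 and 0.611. Rragd is counted here but was above noise on only 4 of 27 liver arrays. Its value is a description alone and gives no support. Under BEZ235 they were Prr5 (-0.51), Grb10 (-0.69) and Mtor (-0.35). Under the combination it was Lamtor2 (0.41). For Foxo1, whose tissue difference passed under the combination and not under placebo in the main fit, the difference of those was -0.27 (adjusted p = 0.801).

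Of the 65 other pathway genes, 9 were higher and 18 lower in placebo tumours than in placebo livers. The counts were 7 and 11 in BEZ235 animals, 7 and 12 in RAD001 animals, and 6 and 6 under the combination. Of all genes, 34.8%, 26%, 28.5% and 19.2% were called in either direction in the same order of treatments. The members, at 11 higher and 6 lower in placebo, had the opposite balance, with Rragd among the 11. The refit over genes above noise in each tissue, which leaves out Rragd, called 10 members higher and 7 lower. The contrast with the other pathway genes was not tested, and no split by direction over all genes stands beside it. Eif4ebp3, another 4E-BP, was lower in tumours with differences of -2.36, -1.20, -1.97 and -0.94 (adjusted p = 2.07e-09, 0.00097, 1.83e-07 and 0.0234), opposite in sign to Eif4ebp1, and the combination call was lost without 709, 713, 726 or 775 (up to 0.3, with differences of -1.45 to -0.56) and with only the groups compared in the fit (0.141). Trib3, a pseudokinase that binds AKT, was higher by 1.69, 1.59, 1.76 and 1.64, and the receptor adaptor Shc1 by 0.87, 0.58, 0.51 and 0.58, past the limit each time.

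Others that passed in placebo tumours by lowest p were the gluconeogenic FOXO target Pck1 (-2.33), the AMPK subunit Prkaa2 (-1.14), the FOXO target Igfbp1 (3.24), the GATOR1 subunit Nprl2 (-0.71), ribosomal protein Rps6 (0.70), Klf15 (-1.17) and the helicase Eif4a2 (-0.63). Pck1 and Igfbp1, both FOXO targets in liver, thus went opposite ways. Of the 10 tested FOXO targets 1 was higher and 4 lower, beside 34.8% of all genes called in either direction. The GATOR2 subunit Sec13 was higher by 0.63 and the helicase Eif4a1 by 0.48, both also in the other 3 treatments, Sec13 under the combination not without 726 (adjusted p = 0.0575). Against placebo, 0 of the 65 passed in limma in tumours under any drug and in livers under BEZ235 or RAD001. At an unadjusted p under 0.05 in limma, 8, 3 and 7 were found in BEZ235, RAD001 and combination tumours. That stands beside 5.32%, 7.05% and 7.99% of all genes. In BEZ235 and RAD001 livers 6 and 4 were found, beside 5.15% and 6.42% of all genes.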

How the data were processed

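RNA was measured on Illumina MouseRef-8 arrays, 64 in all. Per the submitters' processing notes BeadStudio was used (version not given). The intensities deposited by the authors are linear and background-subtracted, some below 0, and the file shows them quantile-normalized within each treatment. A further table has 128 value columns that match no sample label and was not used.

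All arrays were quantile-normalized together, corrected by normexp (mean 0, noise SD 7.02, from negative values mirrored at 0) and log2-transformed with an offset of 16. A probe was kept above 2 noise SDs (14.0) on at least 6 arrays: 15244 of 25697 probes. Of the probes, 23978 had 1 gene symbol and 1719 none in the platform annotation, and 23962 matched an Entrez ID. The brightest probe stood for a gene (2728 genes had several), giving 10495 genes.

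Labels gave treatment, tissue, animal and tumour number. Tumours of an animal were averaged. limma 3.58.1 in R 4.3.3 was used, two-sided, with Benjamini-Hochberg adjustment over all genes and a limit of 0.05, after tests on simulated data. Comparisons within a tissue used its 4 groups. Tissue comparisons and effect differences were fitted over all 8 groups, treating the animal as random, since liver and tumour numbers in the labels name the same animal (within-animal correlation 0.097). The number of arrays limits the precision.

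Named were members past the limit against placebo or in placebo tumour against liver, further members by lowest p to 12 per comparison, Mtor, Rptor, Rictor, Pik3ca, Pik3cb, Akt1, Akt2 and Fkbp1a, and up to 10 other pathway genes per comparison. Members and lists were chosen with earlier results of these data known. Other normalizations, background corrections, offsets, filters, probes, pairings, tumour handling and omitted animals were tried.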

Additional observations from a re-analysis of the deposited data

Results flagged for a closer look

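Within each group the lowest and highest animal of every tested member were compared with the nearest other animal by Dixon's test. Of 296 member and group combinations, 19 (6.42%) had an animal that far from its group, 9 of them high and 10 low, and chance gives about 1 in 20. Values are log2 intensities.

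Among inhibitors and Rag proteins, Ddit4l stood high in placebo tumour of animal 769 at 7.523 (nearest 7.111) and Castor1 low in placebo tumour of 747 at 7.081 (nearest 7.759). Rragd was high in placebo liver of 744 at 5.703 (nearest 4.889), and Lamtor1 low in BEZ235 liver of 759 at 7.791 (nearest 8.513). Tsc1 was low in BEZ235 tumour of 755 at 4.467 (nearest 4.849).

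Among adaptor and complex genes, Grb10 was low in BEZ235 liver of 697 at 5.081 (nearest 5.784) and in combination liver of 764 at 4.846 (nearest 5.284). Mapkap1 was low in combination liver of 709 at 8.792 (nearest 9.165) and in combination tumour of 773 at 8.932 (nearest 9.39). Foxo1 was high in placebo tumour of 696 at 8.177 (nearest 7.54).

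Among PI3K subunits, Pik3r1 was high in placebo tumour of 710 at 9.033 (nearest 8.417) and low in RAD001 liver of 745 at 8.852 (nearest 9.278). Pik3r2 was high in placebo tumour of 696 at 5.977 (nearest 5.358) and in combination liver of 773 at 5.996 (nearest 5.239). Pik3cb was low in RAD001 tumour of 727 at 7.156 (nearest 7.85), and Pik3cd high in combination liver of 775 at 5.335 (nearest 4.771). In the AKT group, Akt2 was high in placebo tumour of 710 at 4.916 (nearest 4.592), Pdpk1 low in combination liver of 773 at 6.811 (nearest 7.561) and Phlpp1 high in placebo liver of 776 at 6.156 (nearest 5.389).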

How the results depend on the processing

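No called value changed sign under the alternatives run, and 2 values that were not called did (below). Tumour against liver counts of members ranged, leaving out 1 animal, over 14 to 18 in placebo, 8 to 12 under BEZ235 (8 without animal 697, main 13), 9 to 13 under RAD001 and 7 to 12 under the combination (7 without animal 713, main 11). Under other settings they ranged over 9 to 18, 8 to 14, 8 to 14 and 9 to 12. With the animal as a fixed replicate block, over animals that gave both tissues, they were 9, 8, 8 and 11, and with no replicate block 17, 10, 12 and 11. The fixed block also keeps fewer animals. The shares of all genes called under these alternatives are not given here. Counts of members against placebo, between drugs and of effect differences stayed at 0 under the alternatives run, apart from combination liver against placebo liver, which was 1 (Rictor) on deposited values without the common normalization and 1 with median centring; the cause was not tested. A filter on each tissue, chosen after seeing the data, is given above.

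Of single genes, 4049 values kept direction and side of the limit, 149 lost the limit, 5 gained it, and 2 moved: Pdpk1 in RAD001 tumours without 730 and 732 (0.03, against -0.33) and Rragd in combination tumours without 773 (-0.04, against 0.67). Of 73 named members and comparisons that did not pass, 1 gained the limit by leaving out an animal and 2 under another setting. Changing the scaling moved the median of all genes by less than 0.1 in every comparison. Probes near noise (Prr5, Tsc1, Pik3cd, Akt2, Rragd in liver) have differences that the offset compresses.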
